A study of Homo sapiens with 12 samples.

Results

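The HOXC cluster is the group of homeobox genes HOXC4, HOXC5, HOXC6, HOXC8, HOXC9, HOXC10, HOXC11, HOXC12 and HOXC13 on human chromosome 12. Members were every probe set of the array that names exactly 1 gene, where that gene is one of these 9, which gave 13 probe sets of 44988 and 9 genes of 18132. HOXC6 was read by 3 probe sets, HOXC8 and HOXC11 by 2 each, and the other genes by 1. The cluster was chosen with the lower HOXC8 signal of JQ1-treated Kelly cells in view. Member p-values are therefore given only for JQ1 against DMSO in BE(2)-C. For comparisons with a Kelly group, member values and the number of members past the call rule are a description. They are set beside the share of all probe sets, and nothing is read from those counts. The BE(2)-C p-values take their spread from a fit of all 12 arrays, so the Kelly arrays enter that spread too. Whether BE(2)-C values were also in view when the cluster was chosen is not known, so the BE(2)-C p-values may not be free of that choice either.

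RNA was measured on Affymetrix PrimeView arrays, which read each gene near its 3' end with sets of short probes, in 2 human neuroblastoma cell lines with extra copies of the oncogene MYCN. Kelly is a line from a neuroblastoma, and BE(2)-C is a clonal neuroblastoma subline. Each line was kept for 24 h with 1 µM JQ1, a small molecule that displaces the BET bromodomain proteins from acetylated chromatin, or with DMSO, the solvent control. The 4 groups (Kelly with DMSO, Kelly with JQ1, BE(2)-C with DMSO, BE(2)-C with JQ1) held 3 arrays each, 12 in all, and the small number limits the precision. The labels describe triplicate treatment and leave unsaid if these were separate cultures. The p-values therefore reflect the variation among these particular samples, some or all of it possibly technical. The values come from bulk RNA, in which fewer expressing cells and less RNA per cell cannot be told apart.

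HOX genes encode transcription factors that give cells their position along the head-to-tail axis, and their order in a cluster follows the order in which they act along the body, with low-numbered genes acting nearer the head. Their proteins often bind DNA together with PBX and MEIS cofactors, and Polycomb and Trithorax complexes keep the clusters silent or active through cell divisions. In the trunk and spinal cord, HOXC genes pattern vertebrae and motor neurons, and neuroblastoma arises from the trunk neural crest, which has a HOX code of its own. From the flank gene CALCOCO1 the RefSeq order is HOXC13, HOXC12, HOTAIR, HOXC11, HOXC10, MIR196A2, HOXC9, HOXC8, HOXC6, MIR615, HOXC5, HOXC4 and then SMUG1 and CBX5. The noncoding genes of the cluster are not analysed here.

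The RefSeq promoter table of build GRCh38.p14 matched 2 of the 9 members, HOXC4 and HOXC5, with 1 shared window. It is shown because these neighbours share an annotated start, while with JQ1 in BE(2)-C HOXC4 passed the test and HOXC5 did not. A difference between these genes was not tested. The 250 bases before the start lie at chr12:54016638-54016887 on the + strand. The mature form of miR-196a from MIR196A2, which lies inside the cluster at chr12:53991762-53991783 on the + strand, is shown because HOXC8 mRNA is a known target of this miRNA; the miRNA itself is not analysed here. Capitals mark CCAAT read on the other strand (ATTGG) in the promoter and the seed, bases 2 to 8, in the miRNA.
HOXC4 and HOXC5 promoter: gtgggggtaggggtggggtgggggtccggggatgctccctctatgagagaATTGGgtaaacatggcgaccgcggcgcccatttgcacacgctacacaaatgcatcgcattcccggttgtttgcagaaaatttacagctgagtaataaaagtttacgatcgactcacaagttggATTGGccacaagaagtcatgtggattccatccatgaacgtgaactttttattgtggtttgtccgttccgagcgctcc
hsa-miR-196a-5p: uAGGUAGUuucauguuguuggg

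The shared window was 50.8% G or C, against a median of 58.0% over all windows, and held 14 CpG dinucleotides, an observed over expected ratio of 0.888 against a median of 0.558. A search on both strands found 2 matches of the CCAAT box (CCAAT), at 200 and 77 bases before the start; 32.0% of 35116 windows of this length hold at least 1. The E-box CACGTG, to which MYC family proteins bind, is held by 6.34% of all windows and is not among the letters of this one. The same holds for the TATA box TATAAA (10.7% of windows), the GC box GGGCGG (42.6%), the HOX-PBX site TGATTNAT (2.48%) and the cAMP response element TGACGTCA (1.65%). The matches are descriptions of letters, and none of these sites was measured.

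In BE(2)-C cells JQ1 lowered HOXC4 2.15-fold and HOXC8 4.48-fold, and these were the members that passed the test. HOXC9 and a probe set each of HOXC6, HOXC8 and HOXC11 lay lower in every JQ1 array without passing. HOXC10, HOXC12 and HOXC13 had changes between -0.22 and 0.05 on the log2 scale. HOXC11, which lies among them, had -0.68 and -0.11 in its 2 probe sets, and HOXC5, next to HOXC4, had -0.32. The call rule was a limma adjusted p under 0.05, adjusted by Benjamini-Hochberg over all 44988 probe sets. It was met by 2 of the 13 HOXC probe sets, both lower, against 2.81% of all probe sets and 1.56% in the lower direction. The median log2 fold change of the 13 was -0.29, beside -0.01 over all probe sets.

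HOXC4, the gene nearest to SMUG1 and known in B cells as an activator of the antibody-diversifying enzyme AID, had log2 intensities of 9.77, 9.08 and 9.45 in BE(2)-C with DMSO and of 8.33, 8.23 and 8.43 with JQ1. All 3 JQ1 arrays were below all 3 DMSO arrays. HOXC4 fell by 1.10 in log2 terms, with an SE of 0.20 and a limma adjusted p = 0.0115. The adjusted p spanned 0.000484 to 0.0642 over the alternative settings. The call was lost without BE(2)-C JQ1 replicate 1 (adjusted p = 0.0606) and without BE(2)-C JQ1 replicate 2 (0.0642).

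In Kelly, HOXC4 read 10.01, 10.06 and 10.56 with DMSO and 9.50, 9.45 and 9.29 with JQ1. Here too no JQ1 array reached a DMSO array, and the difference was -0.79 (SE 0.20, 1.73-fold lower). From high to low the order of the groups was Kelly with DMSO (mean 10.21 ± 0.303, SD, n = 3), BE(2)-C with DMSO (9.43 ± 0.346), Kelly with JQ1 (9.41 ± 0.113) and BE(2)-C with JQ1 (8.33 ± 0.0977). Only the middle pair, BE(2)-C with DMSO and Kelly with JQ1, overlapped.

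HOXC5, the neighbour that shares the annotated start, read 7.63, 7.38 and 7.87 in Kelly with DMSO and 7.46, 7.34 and 7.96 with JQ1. In BE(2)-C it read 8.13, 7.29 and 7.23 with DMSO and 7.32, 7.03 and 7.36 with JQ1. Every pair of neighbouring groups overlapped, and BE(2)-C DMSO replicate 1 was the highest array. The log2 fold change was -0.32 (SE 0.25, limma adjusted p = 0.861) in BE(2)-C and -0.04 in Kelly, where it was 0.18 after quantile normalization.

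HOXC6, which helps set thoracic identity of vertebrae, was read at a high level by the probe sets 11737135_a_at and 11740290_a_at. In 11740290_a_at the BE(2)-C signal was 10.80, 10.65 and 10.68 in the DMSO arrays against 10.64, 10.48 and 10.18 in the JQ1 arrays, a difference of -0.28 (SE 0.17, limma adjusted p = 0.648). The groups touched closely but did not overlap. In 11737135_a_at the difference was -0.29 (SE 0.16, limma adjusted p = 0.579), and JQ1 arrays at 10.25 to 10.60 overlapped DMSO arrays at 10.55 to 10.93.

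In Kelly the same HOXC6 probe sets were further apart. The probe set 11740290_a_at read 10.74, 10.88 and 11.12 with DMSO and 10.12, 10.10 and 9.77 with JQ1, a difference of -0.92 (SE 0.17, 1.89-fold lower). The probe set 11737135_a_at read 10.80, 10.74 and 11.11 with DMSO and 10.27, 10.14 and 10.38 with JQ1, a difference of -0.62 (SE 0.16). Neither overlapped between the groups. The remaining HOXC6 probe set, 11737136_a_at, had group means between 4.999 and 5.208 and differences of -0.07 in BE(2)-C and -0.09 in Kelly.

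HOXC8, which acts in brachial motor neurons and in the thoracic skeleton, had the widest span of group means among the members. In BE(2)-C the probe set 11735487_at read 8.327, 9.009 and 8.999 with DMSO and 6.63, 6.98 and 6.24 with JQ1. The lowest DMSO array stood well above the highest JQ1 array. On the linear scale its mean intensity went from 449 ± 111 (SD, n = 3) to 100.1 ± 25.4. HOXC8 fell 4.48-fold, a log2 change of -2.16 with an SE of 0.27 and a limma adjusted p = 0.00144. The call held in 12 of 12 fits that each left out 1 array, where the log2 fold change spanned -2.39 to -1.98, and the adjusted p spanned 1.29e-06 to 0.0132 over all alternatives.

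In Kelly the HOXC8 probe set 11735487_at read 9.23, 9.60 and 8.75 with DMSO and 6.01, 5.52 and 5.67 with JQ1. All 3 JQ1 arrays were far below the DMSO arrays, and the difference was -3.46 (SE 0.27). The mean intensity was 602 ± 173 (SD, n = 3) with DMSO and 53.8 ± 9.46 with JQ1. The order of the group means was Kelly with DMSO (9.19 ± 0.427), BE(2)-C with DMSO (8.78 ± 0.391), BE(2)-C with JQ1 (6.61 ± 0.372) and Kelly with JQ1 (5.73 ± 0.247). The DMSO groups of the lines overlapped, whereas the JQ1 groups did not.

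The other HOXC8 probe set, 11735486_at, read 4.77, 5.64 and 5.90 in BE(2)-C with DMSO and 4.29, 4.19 and 4.19 with JQ1. The JQ1 arrays lay close together and below every DMSO array, at a low signal that limits how well the size of the difference can be read. The difference of -1.21 (SE 0.36, limma adjusted p = 0.118) did not pass, and its adjusted p spanned 0.000596 to 0.339 over the alternatives. It passed without Kelly DMSO replicate 3 (0.0253) or BE(2)-C DMSO replicate 1 (0.0411), with the control signal as a covariate (0.00673) and without the 3 arrays of highest control signal (0.000596). In Kelly it read 5.90, 6.42 and 4.77 with DMSO and 4.16, 4.43 and 4.38 with JQ1, without overlap, a difference of -1.37 (SE 0.36).

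HOXC9, a determinant of thoracic motor columns that is known to promote neuronal differentiation of neuroblastoma cells, read 8.07, 7.75 and 7.85 in BE(2)-C with DMSO and 7.31, 7.29 and 7.52 with JQ1. The groups did not overlap, but the difference of -0.52 (SE 0.21, 1.43-fold lower, limma adjusted p = 0.311) did not pass. It passed under none of the alternatives run, over which the adjusted p spanned 0.0515 to 0.68.

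In Kelly, HOXC9 read 8.64, 8.67 and 8.54 with DMSO and 7.50, 7.41 and 6.61 with JQ1. The DMSO arrays were nearly equal and all above the JQ1 arrays, of which replicate 3 was the lowest. The difference was -1.44 (SE 0.21, 2.72-fold lower), and -1.16 without Kelly JQ1 replicate 3. The groups ran from Kelly with DMSO (8.62 ± 0.0693, SD, n = 3) through BE(2)-C with DMSO (7.89 ± 0.162) and BE(2)-C with JQ1 (7.37 ± 0.126) to Kelly with JQ1 (7.17 ± 0.492), and only the last pair overlapped.

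**Figure D1:**
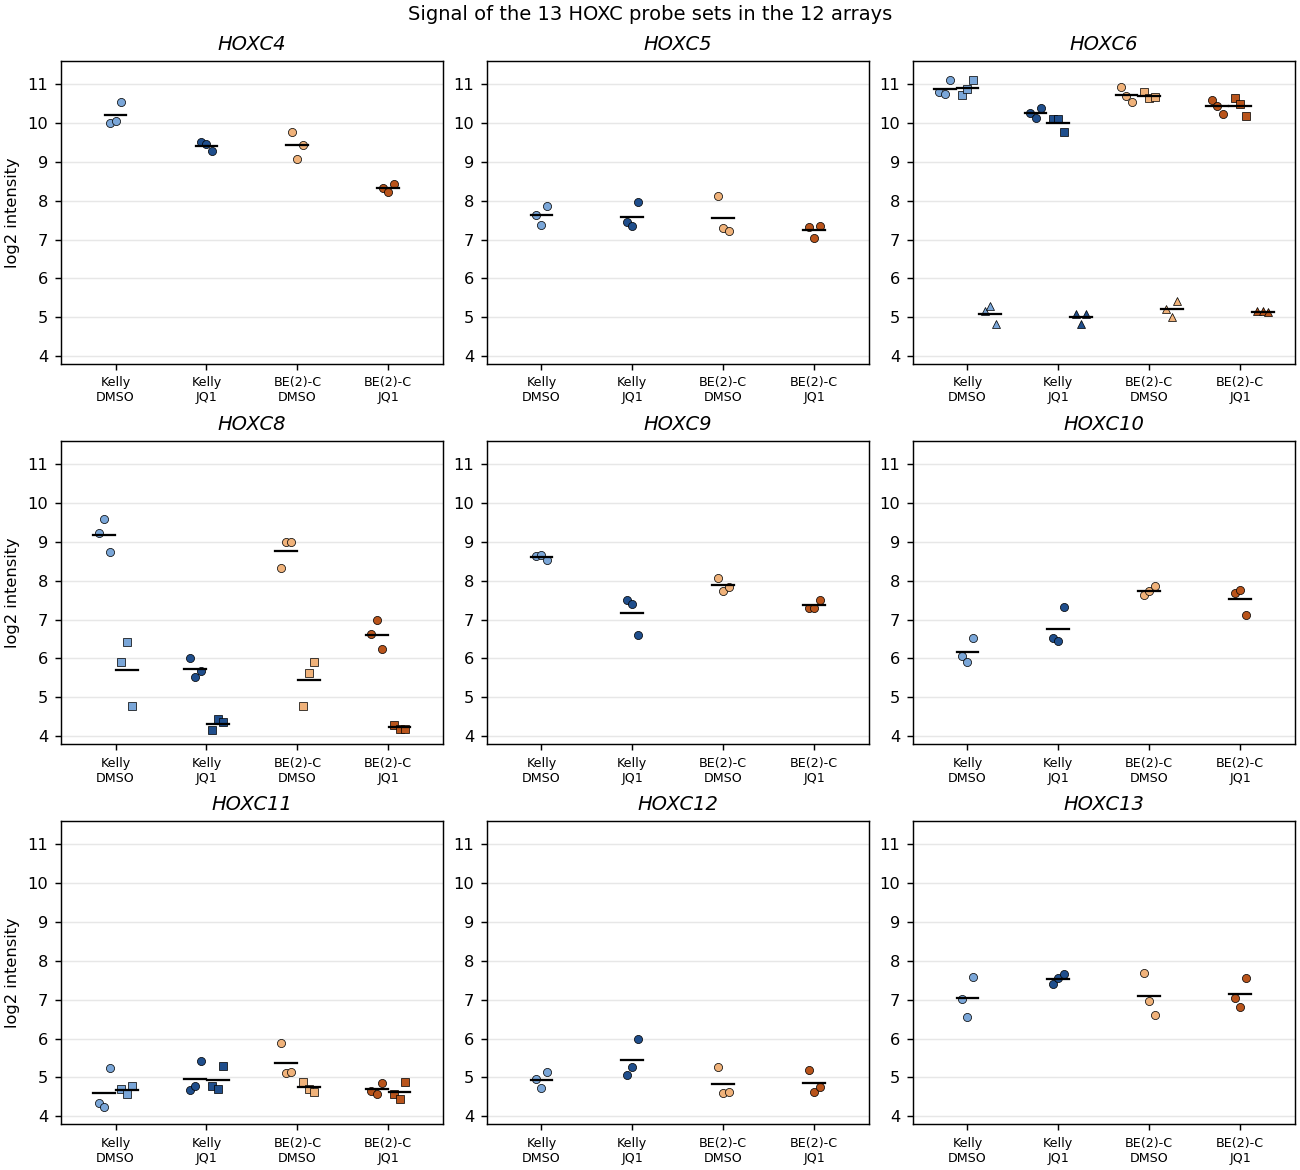
Log2 intensity of the 13 HOXC probe sets in each of the 12 arrays, 1 panel per gene; points are arrays, horizontal bars are means of 3 arrays, and different symbols in a panel are different probe sets of the gene, whose heights cannot be compared with each other. The JQ1 arrays of HOXC4, HOXC8 and HOXC9 lie below the DMSO arrays in both lines, while HOXC5 and HOXC13 overlap throughout.

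HOXC10, which specifies lumbar motor neurons, read 7.64, 7.74 and 7.87 in BE(2)-C with DMSO and 7.70, 7.77 and 7.12 with JQ1. The groups overlapped, and the log2 fold change was -0.22 (limma adjusted p = 0.998). In Kelly, HOXC10 read 6.06, 5.91 and 6.52 with DMSO and 6.54, 6.44 and 7.33 with JQ1, again with overlap, a difference of 0.61 (SE 0.26). From high to low the means were BE(2)-C with DMSO (7.75 ± 0.116, SD, n = 3), BE(2)-C with JQ1 (7.53 ± 0.357), Kelly with JQ1 (6.77 ± 0.489) and Kelly with DMSO (6.16 ± 0.321), and each overlapped its neighbour in that order.

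HOXC11, a posterior gene active in the hindlimb and kidney, read 5.88, 5.10 and 5.13 in BE(2)-C with DMSO and 4.65, 4.57 and 4.85 with JQ1 in the probe set 11734267_a_at. The groups did not overlap, and BE(2)-C DMSO replicate 1 was the highest array of all. The log2 fold change was -0.68 (SE 0.30, limma adjusted p = 0.359). It passed in the fit with the control signal as a covariate (adjusted p = 0.00886). In Kelly this probe set read 4.35, 4.23 and 5.23 with DMSO and 4.68, 4.79 and 5.42 with JQ1, a difference of 0.36 with overlap. The other HOXC11 probe set, 11734268_a_at, had group means of 4.63 to 4.93 and differences of -0.11 in BE(2)-C and 0.24 in Kelly.

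HOXC12, a posterior gene also active in the hair follicle, had a mean of 4.84 in BE(2)-C under DMSO and of 4.85 under JQ1. Its log2 fold change there was 0.02 (limma adjusted p = 1.0), and -0.03 with the control signal as a covariate. In Kelly, HOXC12 read 4.96, 4.73 and 5.14 with DMSO and 5.06, 5.26 and 5.99 with JQ1, a difference of 0.49 with overlap. HOXC13, needed for hair and nail formation, read 7.68, 6.97 and 6.61 in BE(2)-C with DMSO and 7.05, 6.81 and 7.57 with JQ1. Its arrays were spread widely and mixed between the groups, with a log2 fold change of 0.05, and -0.02 with the covariate. In Kelly, HOXC13 read 7.02, 6.55 and 7.59 with DMSO and 7.42, 7.56 and 7.65 with JQ1, a difference of 0.49 with overlap.

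**Figure D2:**
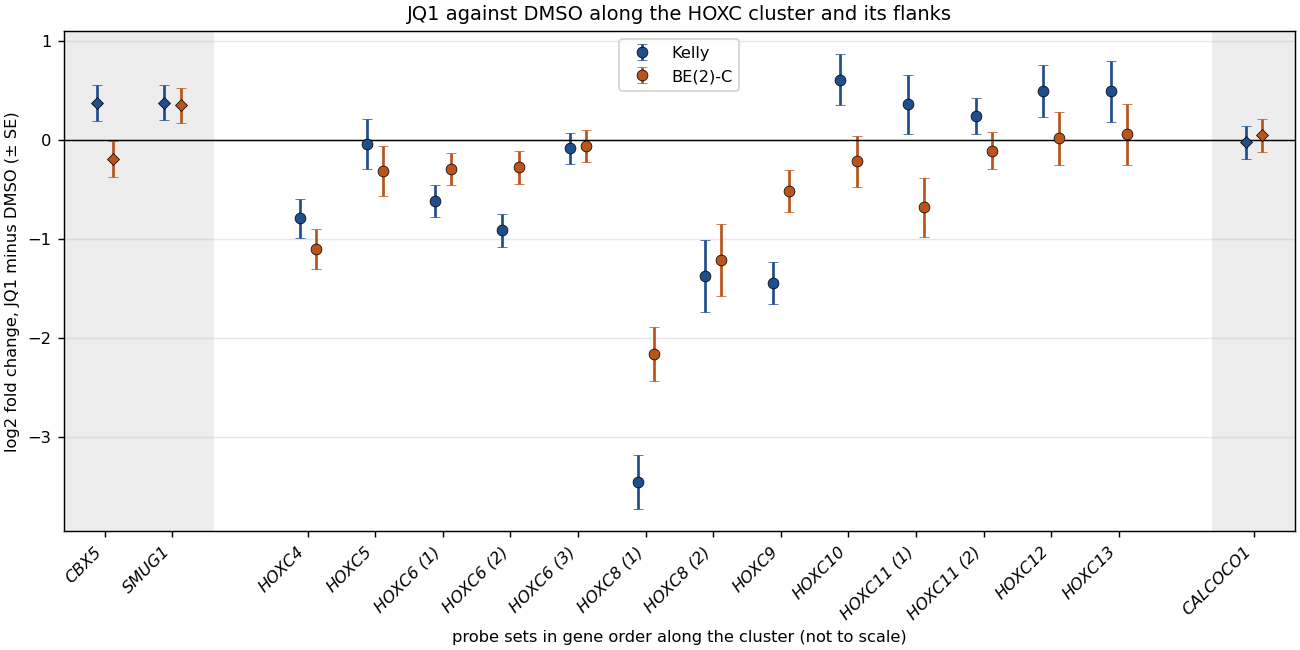
Log2 fold change of JQ1 against DMSO for the HOXC probe sets in gene order (circles) and 3 flank genes (diamonds, grey background); bars are 1 standard error of the limma fit. The lowest values in both lines lie at HOXC8, at -3.46 in Kelly and -2.16 in BE(2)-C, and the values from HOXC10 to HOXC13 are at or above 0 in Kelly.

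In Kelly 4 of the 13 HOXC probe sets (HOXC4, 11740290_a_at of HOXC6, 11735487_at of HOXC8, and HOXC9) met the call rule, all lower, against 4.35% of all probe sets and 3.39% in the lower direction. Since the cluster was chosen on this contrast, nothing is read from the count. With the replicate number as a block, 5 were called (5.23% of all probe sets): HOXC4 no longer, and in its place 11737135_a_at of HOXC6 and 11735486_at of HOXC8. With the Kelly arrays alone 2 were called, 11735487_at of HOXC8 and HOXC9 (1.63% of all probe sets). The Kelly call of HOXC4 was kept in 2 of 12 fits that left out 1 array (without BE(2)-C DMSO replicate 1 or 2), and those of the other 3 probe sets in 12 of 12. Of all Kelly calls 78.0% were lower, and 64.7% after quantile normalization. JQ1 arrays lay below DMSO arrays without overlap in 6 of the 13 HOXC probe sets in Kelly (10.9% of all probe sets) and in 6 in BE(2)-C (9.29%). The 5 that did so in both lines, of HOXC4, HOXC6, HOXC8 (both probe sets) and HOXC9, belong to 4 genes, against 3.59% of all probe sets. This count includes the Kelly values on which the cluster was chosen, so nothing is read from it.

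The difference between the JQ1 effects of the lines (BE(2)-C minus Kelly) met the limma call rule in 0 of the 13 HOXC probe sets, against 0.327% of all probe sets. As it contains the Kelly effect, it is a description for the members. Its value was 1.29 (SE 0.38) for 11735487_at of HOXC8, 0.93 for HOXC9 -0.83 for HOXC10 and -1.04 for 11734267_a_at of HOXC11. With the control signal as a covariate 1 was called, 11735487_at of HOXC8, against 2.29% of all probe sets in that fit.

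The hybridization controls, non-human transcripts added to each labelled sample, differed between arrays. Their mean log2 signal in Kelly was 11.90 ± 1.29 (SD, n = 3) for DMSO arrays and 12.94 ± 0.69 for JQ1 arrays, higher with JQ1 in all 3 same-numbered pairs. In BE(2)-C it was 11.20 ± 1.54 and 11.41 ± 1.20, higher in 1 of 3 pairs and lower in the other 2. With this signal as a covariate the Kelly differences were -0.92 for HOXC4, -3.16 for 11735487_at of HOXC8, 0.59 for HOXC10, 0.05 for 11734267_a_at of HOXC11, 0.29 for HOXC12 and 0.13 for HOXC13. In BE(2)-C 4 HOXC probe sets were called with the covariate, HOXC4, both of HOXC8, and 11734267_a_at of HOXC11, all lower, against 11.7% of all probe sets in that fit.

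Between the lines kept with DMSO, HOXC10 stood higher in BE(2)-C and HOXC4 and HOXC9 stood higher in Kelly. Under DMSO 3 of the 13 HOXC probe sets met the limma call rule, 2 lower and 1 higher in BE(2)-C, against 12.3% of all probe sets in either direction. HOXC10 differed by 1.59 (SE 0.26), HOXC4 by -0.77 and HOXC9 by -0.73, each without overlap between the lines. Without BE(2)-C DMSO replicate 2 or 3 only HOXC10 of the 13 was called. With 1 array left out, the call of HOXC10 was kept in 12 of 12 fits, that of HOXC4 in 9 (also lost without Kelly DMSO replicate 3) and that of HOXC9 in 3 (without BE(2)-C DMSO replicate 1, Kelly JQ1 replicate 1 or Kelly JQ1 replicate 3). The differences were -0.41 for 11735487_at of HOXC8, -0.11 for HOXC12 and 0.03 for HOXC13, all with overlap.

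With JQ1 in both lines, HOXC4 was again lower in BE(2)-C (-1.08), and 11735487_at of HOXC8 was higher there by 0.88 without overlap. These 2 of the 13 met the limma call rule, against 20.2% of all probe sets. Only HOXC4 was called without Kelly DMSO replicate 1, Kelly JQ1 replicate 2 or BE(2)-C JQ1 replicate 1 or 2, and the HOXC8 call was also lost without Kelly JQ1 replicate 3. The HOXC8 difference was 0.45 in the covariate fit and 0.39 for the mean of its probe sets. HOXC10 differed by 0.76 with overlap, HOXC9 by 0.20, and 11740290_a_at of HOXC6 by 0.44 without overlap. Both line comparisons share arrays with the JQ1 comparisons.

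**Figure D3:**
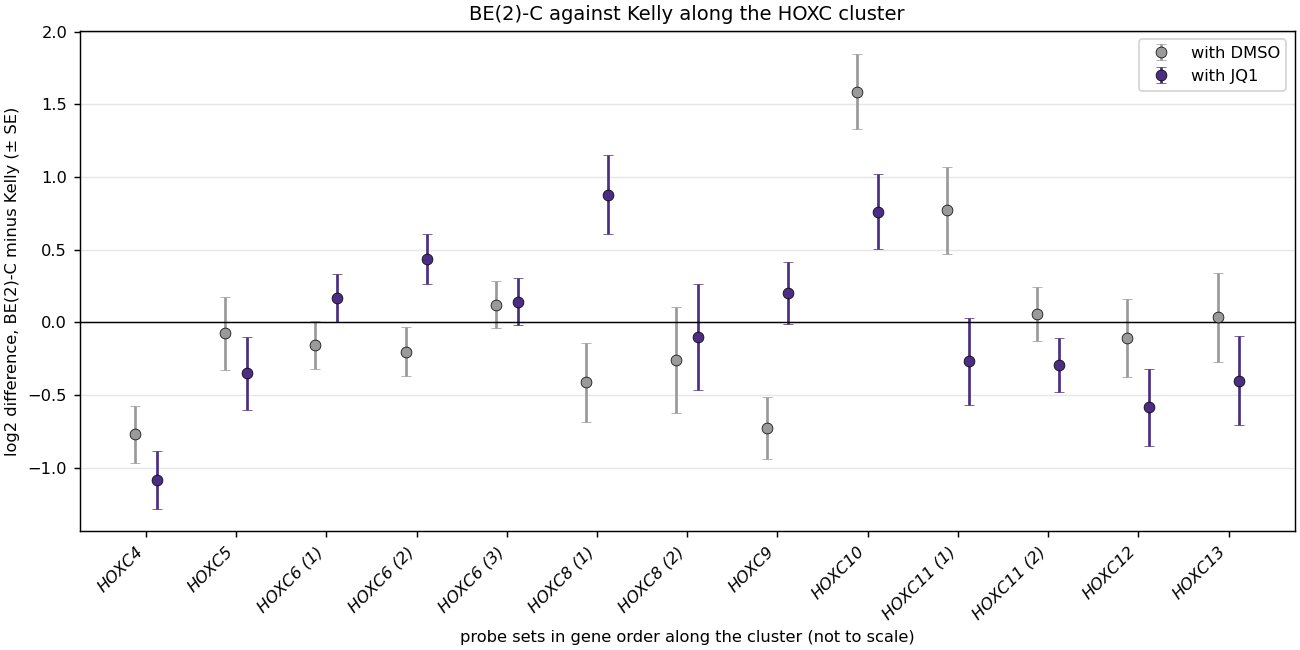
Log2 difference of BE(2)-C minus Kelly for each HOXC probe set in gene order, with DMSO (grey) and with JQ1 (purple); bars are 1 standard error of the limma fit. HOXC10 has the highest value under DMSO (1.59), HOXC4 is negative under both treatments, and 11735487_at of HOXC8 changes from -0.41 to 0.88.

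The flank genes of the cluster did not pass the test with JQ1. Of 10 measured flank genes 0 were called by limma in either line; 0 had an unadjusted p under 0.05 in BE(2)-C and 1 in Kelly. Their median log2 fold change was -0.04 in BE(2)-C and 0.01 in Kelly. The nearest measured gene beyond HOXC4, SMUG1, which encodes a uracil DNA glycosylase, had 0.35 in BE(2)-C and 0.37 in Kelly. CBX5, which encodes the heterochromatin protein HP1 alpha, had -0.19 and 0.37, the latter turning to -0.35 for the mean of its probe sets. CALCOCO1, on the HOXC13 side, had 0.04 and -0.03, the latter turning to 0.12 for the mean of its probe sets. The other 7 (HNRNPA1, ATF7, ATP5MC2, NFE2, COPZ1, GPR84 and ZNF385A) lay between -0.16 and 0.14 in BE(2)-C and between -1.03 and 0.59 in Kelly, ATF7 being the lowest there.

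The other HOX clusters were measured in part. HOXB was covered by 10 of 10 genes and 21 probe sets, of which limma called 0 with JQ1 in either line; 0 had an unadjusted p under 0.05 in BE(2)-C and 2 in Kelly. The median log2 fold change of HOXB was -0.03 in BE(2)-C and 0.24 in Kelly. HOXD was covered by 7 of 9 genes and 11 probe sets, of which 1 was called in BE(2)-C and 3 in Kelly, all lower, with medians of -0.07 and -0.59. Of HOXA only HOXA2, with 2 probe sets and no call, is analysed here. Whether HOXC differed from the other clusters as a group was not tested.

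HOXD10, named after its values were seen, was the HOXD gene called in BE(2)-C. Its probe set 11730130_at fell by 1.29 in BE(2)-C (SE 0.22, limma adjusted p = 0.00835) and by 1.13 in Kelly (SE 0.22, adjusted p = 0.0123). Its other probe set, 11730129_a_at, had -0.14 and 0.31, so the probe sets disagreed. The call was lost in BE(2)-C without BE(2)-C JQ1 replicate 1 (adjusted p = 0.0514, range over the alternatives 0.000778 to 0.0514) and in Kelly without Kelly JQ1 replicate 2 (0.0587, range 0.00265 to 0.0587). The other Kelly calls, also named after the values were seen, were 11737014_s_at of HOXD8 (-1.31, limma adjusted p = 0.0236) and 11725241_at of HOXD9 (-0.74, adjusted p = 0.0284), which had 0.32 and -0.07 in BE(2)-C. The other probe sets of these genes did not pass in Kelly, 11762602_x_at of HOXD8 (-0.89, limma adjusted p = 0.165) and 11757757_s_at of HOXD9 (-0.59, adjusted p = 0.261). The HOXD8 call was kept in 9 and the HOXD9 call in 7 of 12 fits that left out 1 array, being lost without Kelly DMSO replicate 1 or 2 in both, without Kelly JQ1 replicate 3 for HOXD8, and without Kelly JQ1 replicate 1 or 2 or BE(2)-C JQ1 replicate 1 for HOXD9. HOXD9 was not called with the replicate block (adjusted p = 0.0641, range over the alternatives 0.00141 to 0.146). Between the lines, HOXD13, the most posterior HOXD gene, was 5.27-fold lower in BE(2)-C under DMSO (log2 difference -2.40, SE 0.23, limma adjusted p = 2.56e-05, 3.52e-06 to 0.000286 over the alternatives) and differed by -2.57 with JQ1 (limma adjusted p = 1.45e-05). Of the 11 HOXD probe sets 3 were lower and 1 was higher in BE(2)-C under DMSO, and 2 were lower and 2 higher with JQ1. Besides both of HOXD13 these were, named after their values were seen, 11730130_at of HOXD10 (1.11 under DMSO, limma adjusted p = 0.00503, and 0.95 with JQ1, 0.00969), 11725241_at of HOXD9 under DMSO (-0.69, 0.018) and 11737014_s_at of HOXD8 with JQ1 (1.13, 0.0157). The other probe sets of these genes did not pass there. For 11730129_a_at of HOXD10 the difference was 0.20 under DMSO (limma adjusted p = 0.816) and -0.25 with JQ1 (0.485). It was -0.84 for 11757757_s_at of HOXD9 under DMSO (limma adjusted p = 0.0739) and 0.67 for 11762602_x_at of HOXD8 with JQ1 (0.164).

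**Figure D4:**
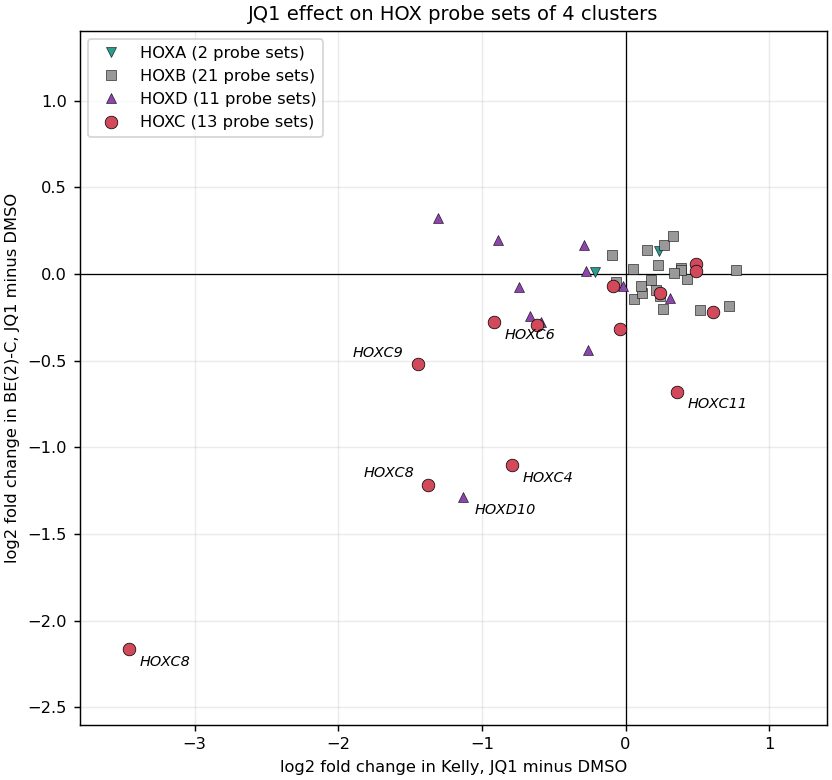
Log2 fold change of JQ1 against DMSO in Kelly (horizontal) and BE(2)-C (vertical) for every HOX probe set; each point is 1 probe set and the symbol gives its cluster. The 11735487_at probe set of HOXC8 lies at the lower left (-3.46 and -2.16), and 11730130_at of HOXD10 lies at -1.13 and -1.29, away from the HOXB points.

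Genes that work with HOX proteins or control the clusters were read from lists. Of 8 measured PBX, MEIS and related cofactors limma called 0 in BE(2)-C (1 at an unadjusted p under 0.05) and 2 in Kelly, both lower, beside 3.77% and 5.52% of all genes. PBX2, a DNA-binding partner of HOX proteins, fell by 1.94 in Kelly, from 8.52 ± 0.118 (SD, n = 3) to 6.58 ± 0.466 (SE 0.21, limma adjusted p = 0.00028). MEIS2, a further partner, fell by 0.85 (SE 0.16, limma adjusted p = 0.0106), a call kept in 11 of 12 fits that left out 1 array and lost without Kelly DMSO replicate 2 (adjusted p = 0.0524, range over the alternatives 0.0033 to 0.0664).

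Of 23 measured Polycomb genes 1 was called in each line and 22 were not, beside 3.77% of all genes in BE(2)-C and 5.52% in Kelly. It was PHF19, which encodes a subunit that guides Polycomb repressive complex PRC2 to chromatin, and it fell by 1.48 in BE(2)-C (SE 0.22, limma adjusted p = 0.00367) and by 2.44 in Kelly (SE 0.22, limma adjusted p = 8.66e-05). Of 17 measured Trithorax genes and HOX activators limma called 0 in either line; 5 had an unadjusted p under 0.05 in BE(2)-C and 1 in Kelly. Of 7 HOX inducers 0 were called in either line; 0 had an unadjusted p under 0.05 in BE(2)-C and 2 in Kelly.

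For the 4 HOXC genes whose group means spanned more than 1 on the log2 scale, the genes with the most similar pattern were sought among 18123 others, by the root mean square difference over the 12 arrays after each gene was centred on its own mean. HOXC8, with a span of 3.46, lay nearest to HDAC9, a histone deacetylase (0.260), GTF3C6, a subunit of the RNA polymerase III factor TFIIIC (0.409), and ZNF573, a zinc finger gene (0.442). HOXC4 (span 1.88) lay nearest to B4GALT2 (0.146), SH3BP1 (0.161) and GATA6 (0.226). HOXC9 (span 1.44) lay nearest to UROD, an enzyme of haem synthesis (0.130), PCDH1 (0.202) and TRMT1 (0.203). HOXC10 (span 1.59) lay nearest to PRSS12 (0.232), POLR2J (0.266) and PTH2R (0.266). All 12 arrays are shared by the genes compared, so the likeness includes whatever the arrays have in common.

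**Figure D5:**
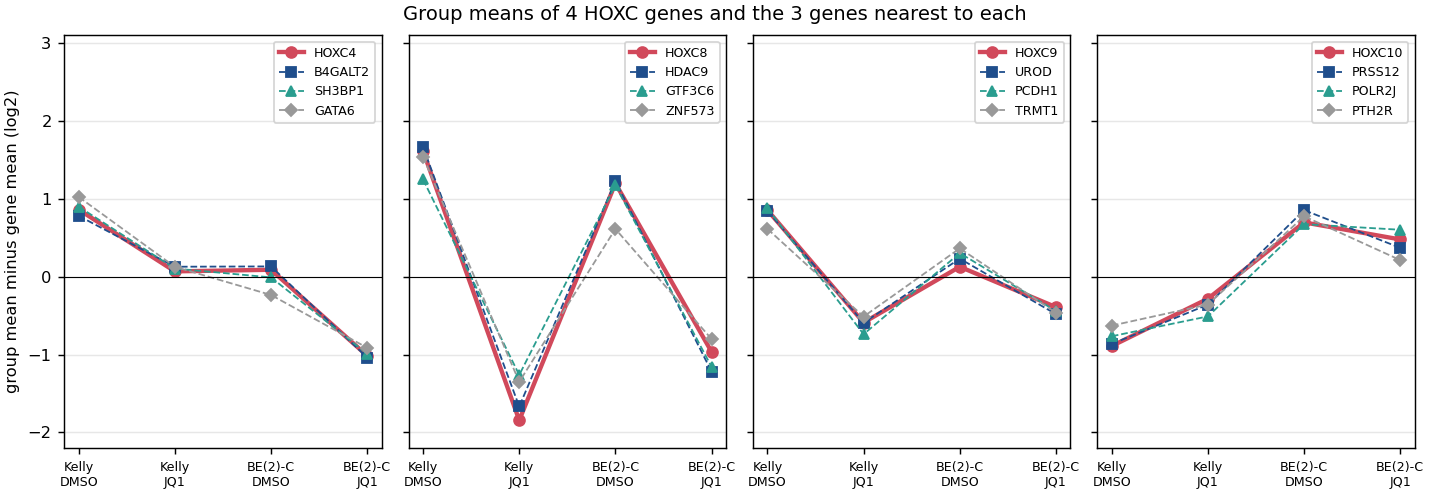
Group means minus the gene's own mean over 12 arrays (log2) for HOXC4, HOXC8, HOXC9 and HOXC10 (red) and the 3 genes nearest to each by root mean square difference; each point is a mean of 3 arrays. HOXC8 and HDAC9 (difference 0.260) are high in both DMSO groups and lowest in Kelly with JQ1, and HOXC10 is lowest in Kelly with DMSO.

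The labelled cell type was checked with marker lists. All 11 measured neuroblastoma markers had group means of 7.35 or above, the lowest being TH in Kelly with JQ1. TH went from 9.25 with DMSO to 7.35 with JQ1 in Kelly and from 9.37 to 7.88 in BE(2)-C. DBH went from 12.13 to 11.15 and from 10.63 to 9.03. Other markers were higher with JQ1 in both lines. PHOX2A went from 10.05 to 10.56 in Kelly and from 10.27 to 11.11 in BE(2)-C, and CHGB from 10.55 to 11.04 and from 11.27 to 12.06. Of the 11 markers 5 had a lower mean with JQ1 in Kelly and 4 in BE(2)-C. Of the 11 markers limma called 3 lower and 0 higher with JQ1 in Kelly, beside 5.52% of all genes. In BE(2)-C it called 2 lower and 3 higher, beside 3.77%. The group means of 6 measured blood markers lay between 3.84 and 7.07, with PTPRC at most 4.35, and those of 7 epithelial markers between 4.12 and 8.17, with CDH1 at most 4.26. Of the epithelial markers KRT19 was lower with JQ1 in both lines, with means of 7.20 and 5.83 in Kelly and of 8.17 and 6.87 in BE(2)-C, beside the lower HOXC genes of these arrays. Other epithelial markers were higher with JQ1, such as KRT8 in Kelly (6.95 and 7.69) and EPCAM in BE(2)-C (4.22 and 4.85). Of the 7, 2 had a lower mean with JQ1 in Kelly and 5 in BE(2)-C. Limma called 1 in each line, lower, beside 5.52% and 3.77% of all genes. The epithelial sum was 364 to 602 with DMSO and 422 to 685 with JQ1 in Kelly, with overlap, and 491 to 739 and 377 to 472 in BE(2)-C, without. KRT19 had the highest mean of the list in both BE(2)-C groups, so it weighed most in the sum there. Fibroblast and Schwann cell markers (8 of 10 measured) summed to an intensity of 671 to 724 in BE(2)-C with DMSO and 468 to 505 with JQ1, without overlap, beside the lower HOXC4 and HOXC8 of these JQ1 arrays. Of these markers DCN went from a mean of 6.84 to 4.97 and LUM from 6.15 to 4.15, while COL1A2 stayed between 4.83 and 4.99 in all 4 groups. The Schwann cell markers SOX10 (6.51 and 6.57) and S100B (6.62 and 6.72) were not lower with JQ1 in BE(2)-C, nor was COL1A1 (5.80 and 5.86). Of the 8 markers 5 had a lower mean with JQ1 there, and limma called 2, both lower, beside 3.77% of all genes. The part of these markers and of KRT19 in the HOXC result was not tested. In Kelly the sums were 381 to 523 with DMSO and 441 to 500 with JQ1 and overlapped.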

How the data were processed

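RNA of 12 samples was profiled on PrimeView arrays. RMA produced the values, per the submitters' processing notes; its version is not stated there. What the authors deposited is linear intensity (array medians from 61.4 up to 67.3), so log2 was taken here with no offset. Because RMA normalizes between arrays, a change in total RNA cannot be seen in these values. Of 49395 probe sets, 44988 named 1 gene in the platform annotation, 1832 several, 2473 none, and 102 were controls. Symbols were updated to the GRCh38.p14 gene table.

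All 44988 entered 1 fit of the 4 group means (lmFit, contrasts.fit and eBayes of limma 3.58.1, without trend, under R 4.3.3). P-values are two-sided and Benjamini-Hochberg adjusted, with a threshold of 0.05. The test was tested on simulated data with independent noise in each array. Residuals of the real arrays were correlated, so the simulation does not show the error rate in these data. Members and gene lists were chosen with earlier results of these data known.

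The named genes were all members, all measured flank genes, the 6 other HOX genes with the largest change among those passing in each contrast, up to 4 passing genes per cofactor or regulator list, and the 3 genes most like a member. Genes outside HOXC were read from their brightest probe set, except HOXD8, HOXD9 and HOXD10.

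Within-group residuals of samples with the same number correlated at 0.420, 0.227 and 0.509 in Kelly, across probe sets. In BE(2)-C they correlated at -0.0354, 0.537 and -0.749, so the residuals show no common pairing by number there. In Kelly, DMSO replicate 2 correlated more with JQ1 replicate 1 (0.430) than with JQ1 replicate 2. Such correlations also hold whatever else arrays share, so whether the numbers pair the samples is not settled in either line. The alternatives were a replicate block, the control signal as a covariate, quantile normalization, a trend with a robust prior, the arrays of a line alone, dim probe sets left out, a pseudocount of 16, the brightest or mean probe set of a gene, and each array left out. Leaving out the 3 arrays of highest control signal was chosen after seeing the data.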

Additional observations from a re-analysis of the deposited data

How the results depend on the processing

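Of 273 alternative values of HOXC members with JQ1 in BE(2)-C, 257 kept their direction and side of the threshold. The number of HOXC probe sets called there was 2 in the main fit and with a replicate block, 4 with the control signal as a covariate (11.7% of all probe sets), and 1 to 3 when 1 array was left out. In Kelly it was 4, with 5 under the replicate block, 2 with the Kelly arrays alone, 7 (6 lower, 1 higher) without the 3 arrays of highest control signal (20.2% of all probe sets), and 3 to 6 with 1 array left out. Under DMSO the 3 calls between the lines became 5 with the covariate (23.4% of all probe sets, from 12.3%) and 1 to 3 with 1 array left out; with JQ1 the 2 became 1 with a pseudocount of 16 and 1 to 3. For the difference of the JQ1 effects the 0 calls became 1 with the covariate (2.29%, from 0.327%), stayed at 0 with the replicate block, and were 0 in every fit without 1 array. The block lies within a line, so it was not run for the line comparisons; it changed no call of a member with JQ1 in BE(2)-C. Signs turned in BE(2)-C with the covariate for HOXC12 (-0.0255), HOXC13 (-0.0173) and NFE2 (-0.0403), and without the 3 arrays of highest control signal for ATF7 (-0.0289), COPZ1 (-0.0485) and ZNF385A (0.21). In Kelly they turned for CALCOCO1 (0.12 for the mean of probe sets, 0.10 without the 3 arrays), CBX5 (-0.35 for the mean of probe sets) and GPR84 (-0.11 with the covariate, -0.052 after quantile normalization). With 1 array left out, values spanned -0.15 to 0.24 for HOXC12, -0.18 to 0.35 for HOXC13, -0.17 to 0.0347 for 11737136_a_at of HOXC6, -0.0289 to 0.33 for ATF7, -0.28 to 0.0204 for ATP5MC2, -0.0892 to 0.12 for CALCOCO1, -0.20 to 0.26 for NFE2, -0.0485 to 0.25 for COPZ1 and -0.30 to 0.21 for ZNF385A in BE(2)-C, and -0.14 to 0.036 for CALCOCO1, 0.22 to 0.50 for CBX5 and -0.16 to 0.16 for GPR84 in Kelly. Of the member values given as a description, 35 of 1027 had the other sign, in 17 of 52 results; among them HOXC5 in Kelly went to 0.18 after quantile normalization and spanned -0.23 to 0.0803 with 1 array left out, and 11737136_a_at of HOXC6 in Kelly spanned -0.22 to 0.0079. Over all probe sets the calls were 1263 in BE(2)-C and 1958 in Kelly, 5281 and 4116 with the covariate, 4755 and 9109 without the 3 arrays, and 426 to 1804 and 852 to 3843 with 1 array left out. The cause was not tested. The low signals of HOXC11, HOXC12, 11737136_a_at of HOXC6 and 11735486_at of HOXC8 limit what can be seen of these genes.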
